A study of Mus musculus with 4 samples.

Results

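The genes described here are 9 components of the Hedgehog pathway, the receptors Ptch1 and Hhip, the co-receptors Gas1, Cdon and Boc, the signal transducer Smo and the transcription factors Gli1, Gli2 and Gli3. They were chosen by symbol, through the RefSeq accession that the array gives for each probe, and are 9 of the 21154 genes that could be named on the array. All 9 passed the filter on dim probes, as did 13565 genes in all, and their 14 probes were above background on all 4 arrays. The samples were primary mouse mesenchymal stromal cells (MSCs) at passage 5, transduced by retrovirus with a short hairpin RNA, with total RNA measured on 4 one-colour Agilent arrays. The hairpin arrays, labelled mMSC shlSLR no.1, no.2 and no.3 and called hairpins 1, 2 and 3 here, each carried another target sequence in Islr, the gene of the secreted and cell surface protein Meflin. The control array, labelled mMSC shControl, carried a control hairpin. Each group of cells is 1 culture on 1 array. The labels do not say which promoter drives the hairpins, how transduced cells were selected, or whether the 4 cultures came from 1 preparation, so n = 3 counts hairpins.

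Hedgehog ligands act on mesenchymal cells by binding Ptch1, which otherwise holds the membrane protein Smo inactive. Gas1, Cdon and Boc bind the ligand together with Ptch1 and raise the response, while Hhip binds the ligand and sequesters it. Active Smo, at the primary cilium, shifts the balance of Gli proteins: Gli2 acts mainly as an activator and Gli3 mainly as a repressor. Gli1, Ptch1 and Hhip are themselves transcribed in response to the pathway and are widely read as its output, and Gli1 marks stromal progenitor cells around vessels in mouse tissues.

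The 3 promoters printed here belong to the member with the highest mean difference among those in the RefSeq table (Hhip) and the 2 with the lowest (Cdon and Gas1). Each window runs from 250 bases before the annotated start to 50 bases after it, on RefSeq build GRCm38.p6, 5′ to 3′ on the gene's strand. The table held 7 of the 9 members. Capitals mark matches, on either strand, to a GC box (GGGCGG) and to a cyclic AMP response element (TGACGTCA). No 2 matches overlapped.
Hhip, chr8:80057959-80058258, minus strand: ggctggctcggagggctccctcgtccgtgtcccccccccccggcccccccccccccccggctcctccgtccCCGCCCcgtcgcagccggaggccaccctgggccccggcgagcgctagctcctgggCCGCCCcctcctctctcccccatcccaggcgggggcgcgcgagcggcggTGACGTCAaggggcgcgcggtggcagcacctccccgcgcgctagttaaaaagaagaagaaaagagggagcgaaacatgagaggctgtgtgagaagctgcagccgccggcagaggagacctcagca
Cdon, chr9:35451826-35452125, plus strand: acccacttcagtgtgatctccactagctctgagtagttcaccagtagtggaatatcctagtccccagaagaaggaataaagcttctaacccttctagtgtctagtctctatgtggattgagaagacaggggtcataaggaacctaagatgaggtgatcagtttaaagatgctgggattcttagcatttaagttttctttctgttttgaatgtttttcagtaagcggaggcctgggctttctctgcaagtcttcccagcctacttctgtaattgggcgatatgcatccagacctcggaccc
Gas1, chr13:60177486-60177785, minus strand: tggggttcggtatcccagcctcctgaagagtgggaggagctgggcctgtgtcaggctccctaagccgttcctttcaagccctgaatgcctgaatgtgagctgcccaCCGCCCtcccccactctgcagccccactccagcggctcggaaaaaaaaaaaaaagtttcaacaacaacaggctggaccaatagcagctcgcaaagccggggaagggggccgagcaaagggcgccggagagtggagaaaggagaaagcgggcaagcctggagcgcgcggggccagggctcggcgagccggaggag
The Hhip window held 2 GC boxes and 1 cyclic AMP response element, and the Gas1 window held 1 GC box. The GC box occurred in 35.7% and the response element in 1.79% of the 32851 windows in the table. The 9-letter Gli consensus GACCACCCA, found in 0.253% of all windows, was in none of the 7 member windows, which says only that these letters are not there. The G and C share was 73.7% in the Hhip window, 62.3% in that of Gas1 and 44.7% in that of Cdon, against a median of 52.7% over all windows. Hhip had 30 CG pairs, Gas1 17 and Cdon 3, with a median of 7. The Cdon window was thus poorer in G and C than the median and the other 2 richer, a description with no test. The windows follow the annotated start, and whether transcription begins there in these cells was not measured.

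Between 49.4% and 53.8% of the 59305 features that are not controls were well above background on an array, and no feature was saturated. The target of the hairpins had a signal of 11.01, 70.5 and 3.44 on hairpins 1, 2 and 3, against 454 on the control array. Hairpins 1 and 3 were not above background for Islr, so only a bound can be given there: at least 20.5-fold lower on hairpin 1, and on hairpin 3 at least 29.6-fold. On hairpin 2 it was 6.33-fold lower. The bounds are set against the lowest signal called above background on the array, after scaling, and not against the probe's own limit. Of the 19 listed MSC and stromal marker genes, 18 were above background on all 4 arrays, and their summed scaled signal lay between 1174 and 1315 on the hairpin arrays, against 1315 on the control array. A few bright genes make up most of that sum, and single markers did differ: Pdgfra was at -0.10, -1.15 and -1.17 and Thy1 at 1.68, 0.91 and 0.77 (log2) on hairpins 1, 2 and 3. Of 10 haematopoietic markers on the array, 5 were above background on all 4, among them Cd68 and Csf1r, while Ptprc and Adgre1 were on none. Their summed scaled signal was 29.5, 24.7 and 19.0 on hairpins 1, 2 and 3, against 27.7 on the control array. Itgam makes up most of that sum by its brightest probe. That probe had a signal of 8743, 7547 and 4960 on hairpins 1, 2 and 3, against 8880 on the control array. The other Itgam probes were dim on the same arrays, at 34.3, 27.7 and 35.7 against 38.1, and at 17.5, 18.9 and 27.9 against 19.4. Of the 5 tested markers, 3 were lower on all 3 hairpins and 1, Cd14, was higher (log2 0.77, 0.45 and 0.46). The 8 endothelial markers summed to between 7.70 and 8.37 on the hairpin arrays, against 8.23 on the control array, with 2 above background on all 4 and Cdh5 on none. Kdr makes up most of that sum by its brightest probe. A dimmer Kdr probe had a signal of 75.8, 86.4 and 155 on hairpins 1, 2 and 3, against 95.8 on the control array. Vwf had a signal of 55.9, 16.6 and 188 on hairpins 1, 2 and 3, against 21.5 on the control array, and was above background on hairpins 1 and 3. The 7 epithelial markers summed to 1.14, 1.34 and 3.02 on hairpins 1, 2 and 3, against 0.631 on the control array, with 2 above background on all 4 and Epcam on none. Krt19 carries most of that difference, with a signal of 357, 359 and 1169 on hairpins 1, 2 and 3, against 135 on the control array, while Krt18 was at -0.44, 0.75 and -0.11 (log2). The part of these marker levels in the results below was not tested.

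Hhip and Gli1 lay above the control array on all 3 hairpins. Cdon, Gas1, Gli2, Smo and Boc lay below it on all 3, and Ptch1 and Gli3 had hairpins on both sides. Over all 13565 genes tested, 27.6% lay above the control on all 3 hairpins and 24.6% below it on all 3. The members' 2 of 9 above is near that background, and their 5 of 9 below is a larger share than it. The same control array stands in each difference, and any error of it shifts all 3. No member passed limma's test over all genes (Benjamini-Hochberg adjusted p between 0.645 and 0.996), in which 0.346% of genes were called. At an unadjusted p under 0.05 limma gave 3 of 9 members (Gli1, Hhip and Gas1). It gave 655 of the 13565 genes tested, a share near that threshold. All 47 called genes were lower and below background on all 3 hairpins, whereas every member was above background on all 4 arrays. Islr, above background on hairpin 2, was thus not among the called genes, though it was lower on all 3 hairpins. A gene that was not called may therefore still differ.

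A rule of size without a p-value separates the members further. Hhip and Gli1 were at least 1.5-fold above the control on all 3 hairpins, as were 0.958% of all genes. Cdon and Gas1 were at least 1.5-fold below it on all 3, as were 3.04% of all genes. The filter also keeps genes above background on the control array but not on every hairpin, which can raise the lower shares over all genes. Of the 13565 genes tested, 12716 were above background on all 4 arrays, as all 9 members were. These shares, and the ranks below, were not computed among those genes alone. No member was 2-fold from the control on all 3 hairpins by the brightest probe, while the dimmer probe of Hhip was, at 2.99-fold, 2.24-fold and 2.77-fold on hairpins 1, 2 and 3. In these bulk samples, fewer cells of a type and less RNA per cell cannot be told apart. Differences below are log2 of the processed signal scaled to each array's 75th percentile, hairpin minus control. They are given as mean ± SD of the hairpins (n = 3), with limma's 95% interval, which takes the spread between hairpins for that of the control and is not adjusted over genes.

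**Figure D1:**
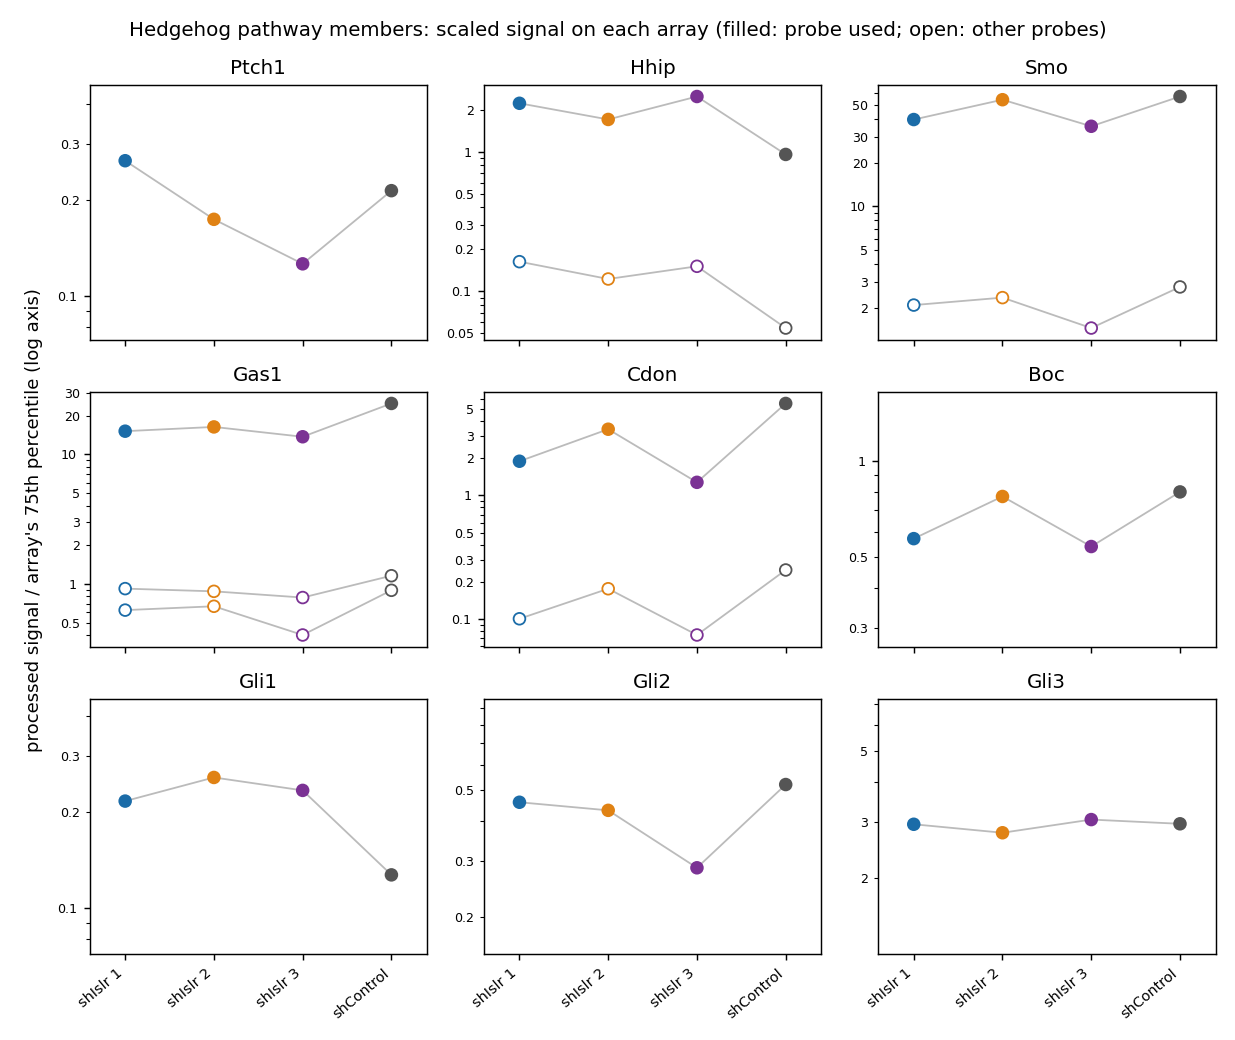
Processed signal divided by the array's 75th percentile (log axis) of each probe of the 9 members on the 3 hairpin arrays and the control array, 1 point per array. Filled points are the probe that stands for the gene and open points its other probes, and levels of different probes are not comparable. Hhip and Gli1 are lowest on the control array, Cdon and Gas1 are highest there, and Gli3 is nearly level.

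Among the receptors, Hhip, the membrane protein that sequesters Hedgehog ligands, had a signal of 919, 739 and 1074 on hairpins 1, 2 and 3, against 422 on the control array. All 3 hairpins were above the control, by 2.32-fold, 1.78-fold and 2.60-fold, and hairpin 2 was the nearest to it. The mean difference was 1.14 ± 0.28, with an interval of 0.39 to 1.89 (adjusted p = 0.698). That was rank 94 from the highest of 13565 genes. A dimmer probe of Hhip had a signal of 67.5, 53.3 and 65.4 on hairpins 1, 2 and 3, against 24.1 on the control array. Its mean difference was larger, at 1.40 ± 0.21, with hairpin 2 again nearest to the control.

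Ptch1, the ligand receptor, had a signal of 110.0, 75.7 and 54.7 on hairpins 1, 2 and 3, against 94.6 on the control array. Hairpin 1 lay above the control by 0.31, hairpin 2 below it by 0.30 and hairpin 3 below it by 0.76. The mean of -0.25 ± 0.54 was smaller than the spread between hairpins, and the interval, -1.46 to 0.96, includes changes in both directions (adjusted p = 0.974). Without hairpin 3 the mean was 0.0066, and with normexp background correction and quantile normalization it was -0.084. The 2 receptors that serve as pathway output therefore had different orders: by its brightest probe Hhip was highest on hairpin 3, the lowest of the 4 arrays for Ptch1. The dimmer probe of Hhip was highest on hairpin 1 (1.58, with hairpin 3 at 1.47), as was Ptch1.

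Cdon, a transmembrane co-receptor of the immunoglobulin family, was the member farthest below the control. Its signal was 784, 1494 and 553 on hairpins 1, 2 and 3, against 2453 on the control array. All 3 hairpins were lower, by 2.93-fold, 1.62-fold and 4.35-fold, and they differed from each other by up to 1.43 on the log2 scale. The mean difference was -1.45 ± 0.72, with an interval of -3.01 to 0.10 (adjusted p = 0.964). That was rank 270 from the lowest of 13565 genes. A dimmer probe of Cdon had a signal of 41.7, 76.5 and 32.2 on hairpins 1, 2 and 3, against 110.3 on the control array, a mean difference of -1.19 ± 0.63. Both probes put hairpin 3 lowest and hairpin 2 nearest to the control.

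Gas1, a lipid-anchored co-receptor first known from growth-arrested fibroblasts, had a signal of 6281, 7113 and 5944 on hairpins 1, 2 and 3, against 10984 on the control array. The 3 hairpins were close together and all lower, by 1.64-fold, 1.52-fold and 1.81-fold. The mean difference of -0.72 ± 0.13 had an interval of -1.27 to -0.18 (adjusted p = 0.847), at rank 720 from the lowest. Another 2 probes of Gas1 were also lower on all 3 hairpins, with means of -0.43 ± 0.12 and -0.69 ± 0.40, and on hairpins 1 and 2 they were under 1.5-fold from the control. With the mean over the 3 probes the difference of Gas1 was -0.62, and Gas1 no longer met the 1.5-fold rule.

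Boc, the close relative of Cdon, had a signal of 237, 337 and 234 on hairpins 1, 2 and 3, against 353 on the control array. Hairpins 1 and 3 were lower by 1.40-fold and 1.48-fold. Hairpin 2 differed by -0.05, which is less than the 0.11 that repeated spots of 1 probe give as the SD of a difference at this signal. The mean difference was -0.37 ± 0.28, with an interval of -1.12 to 0.38 (adjusted p = 0.964). All 3 co-receptors thus lay on the same side, with Cdon farthest from the control. By the brightest probe Gas1 was the steadiest across hairpins, while 1 of its other probes had an SD of 0.40, above the 0.28 of Boc. No difference between the co-receptors was tested.

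Smo, the membrane protein that carries the signal from Ptch1 to the Gli proteins, had a signal of 16389, 23551 and 15398 on hairpins 1, 2 and 3, against 25179 on the control array. Hairpins 1 and 3 were lower by 1.44-fold and 1.60-fold. Hairpin 2 was at -0.07, within the 0.07 to 0.08 of repeated spots at this signal. The mean difference was -0.43 ± 0.32, with an interval of -1.23 to 0.38 (adjusted p = 0.964). The other probe of Smo, with 869, 1026 and 631 on hairpins 1, 2 and 3 against 1235 on the control array, had a mean of -0.53 ± 0.36 and the same order of arrays. Its hairpin 2 was at -0.24, beyond the 0.08 to 0.09 of repeated spots at that signal.

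**Figure D2:**
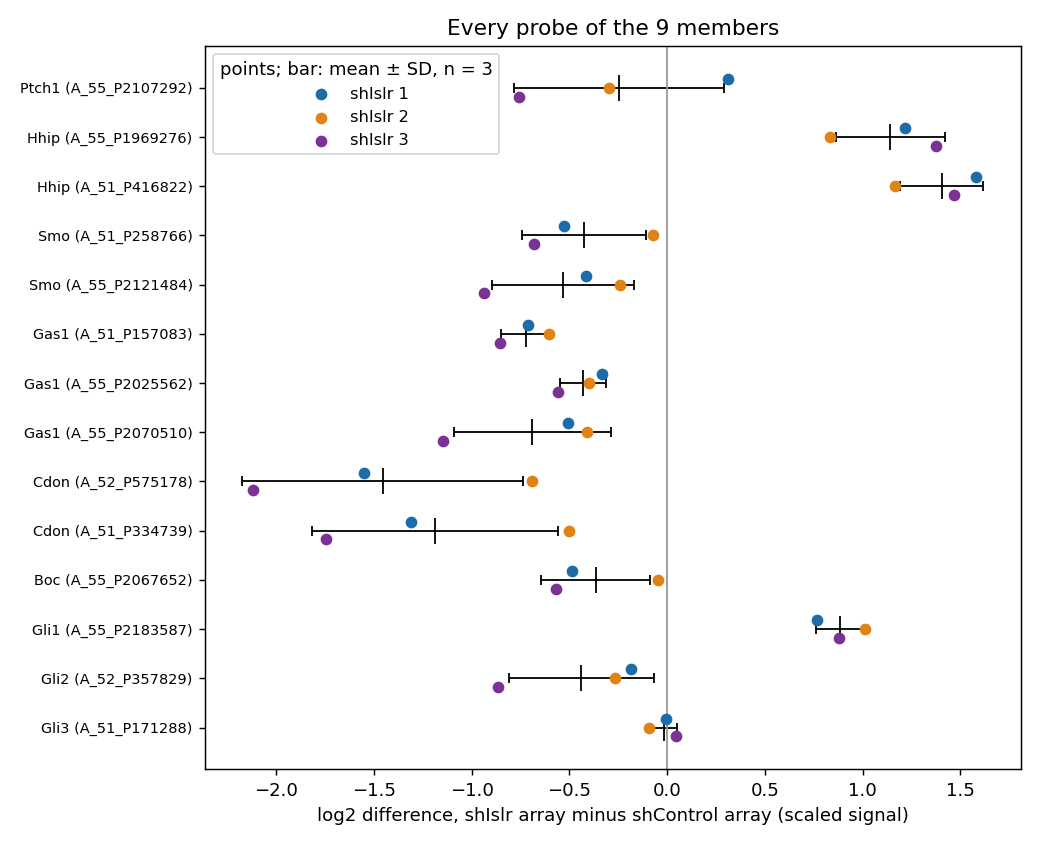
Log2 difference from the control array of every probe of the 9 members, with 1 point per hairpin and bars for the mean ± SD (n = 3). Probes of the same gene lie on the same side of 0, with Hhip and Gli1 to the right and Cdon farthest to the left, and hairpin 2 is the point nearest to 0 in both probes of Cdon and of Smo.

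Among the transcription factors, Gli1, an activator and target of the pathway, had a signal of 89.7, 112 and 101 on hairpins 1, 2 and 3, against 56.3 on the control array. All 3 hairpins were above the control, by 1.70-fold, 2.02-fold and 1.84-fold, and close together. The mean difference was 0.88 ± 0.12, with an interval of 0.34 to 1.43 (adjusted p = 0.645), at rank 205 from the highest. Repeated spots of 1 probe gave an SD of 0.16 to 0.20 for a difference at signals of 50 to 150, and 0.31 to 0.54 at 20 to 50. The same control spot stands in all 3 differences. The probe is dim, and with normexp background correction, which adds an offset of 50, and quantile normalization the mean was 0.49.

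Gli2, the main activator, had a signal of 189.9, 188 and 124 on hairpins 1, 2 and 3, against 230.2 on the control array. All 3 were lower, but hairpins 1 and 2 by 1.14-fold and 1.20-fold and hairpin 3 by 1.82-fold. The mean was -0.44 ± 0.37, with an interval of -1.34 to 0.46 (adjusted p = 0.964), and -0.23 without hairpin 3. Gli3, the main repressor, had a signal of 1223, 1207 and 1322 on hairpins 1, 2 and 3, against 1309 on the control array. Its differences of -0.005, -0.09 and 0.04 lay near the 0.08 to 0.09 of repeated spots. The mean of -0.018 ± 0.069 had an interval of -0.52 to 0.48 (adjusted p = 0.996), which leaves room for a difference in either direction. The Gli factors thus took different positions, with Gli1 above the control, Gli2 below it and Gli3 nearly level with it.

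**Figure D3:**
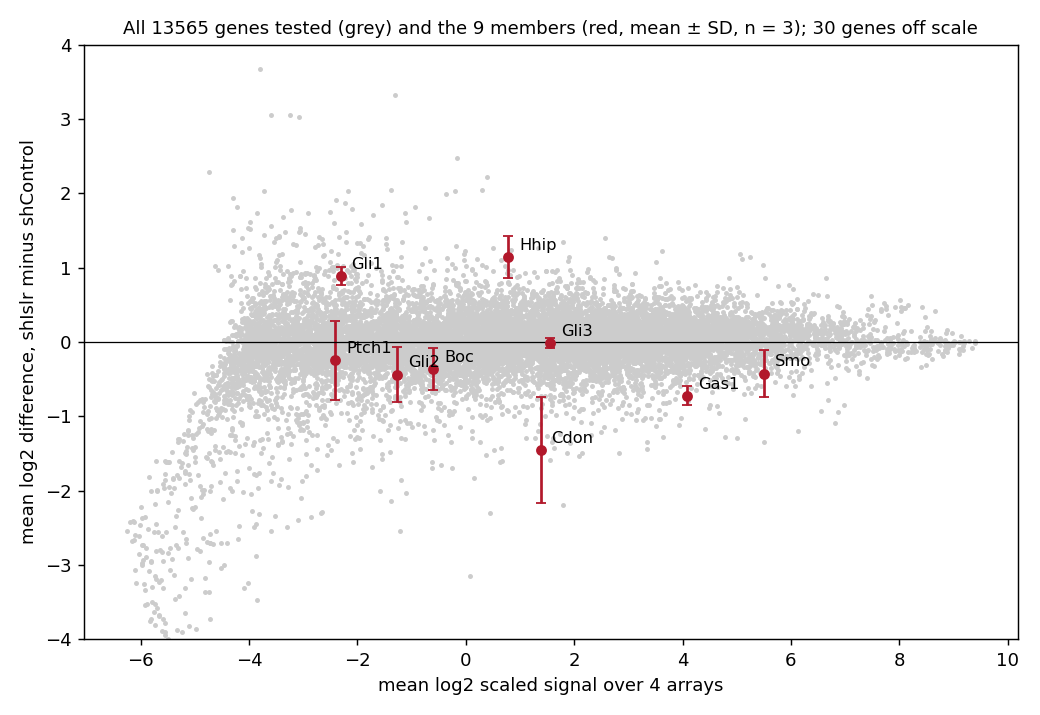
Mean log2 difference, hairpins minus control, against mean log2 scaled signal over the 4 arrays for all 13565 genes tested (grey) and the 9 members (red, mean ± SD, n = 3). Hhip at 1.14 lies at the upper edge of the cloud at its signal, Gli1 at 0.88 lies above 98.5% of all genes, and Cdon at -1.45 lies at the lower edge, while 30 genes lie beyond the axis limit of 4.

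The hairpins were not alike across the members below the control. By the brightest probe, 4 of the 5 members lower on all 3 hairpins (Cdon, Gas1, Smo and Boc) had hairpin 2 nearest to the control and hairpin 3 farthest. Gli2 had hairpin 1 nearest and hairpin 3 farthest, as did 1 of the other probes of Gas1 (-0.33, -0.40 and -0.56). Of all genes, 5.4% were lower on all 3 hairpins with hairpin 2 nearest and hairpin 3 farthest, which is 21.9% of the 3336 genes lower on all 3. Hairpin 2 was also the array with measured Islr signal left. Hhip, above the control, had hairpin 2 nearest as well, whereas Gli1 had hairpin 2 farthest. This order was noticed in the values and carries no test.

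Cell cycle genes lay on the same side of the control as Gli1. Of 29 tested, 28 were above the control on all 3 hairpins (96.6%, against 27.6% over all genes) and none below. Their median was 0.56, against 0.0099 over all genes. Their medians were 0.39, 0.92 and 0.44 on hairpins 1, 2 and 3, where Gli1 was at 0.77, 1.01 and 0.88. Hairpin 2 was the highest in both. No cell cycle gene passed limma's test, and the part of cell cycle activity in the level of Gli1 was not tested.

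The other genes of the pathway were read in 4 lists. Of 15 genes for ligands, their release and their carriers, 6 were tested. Shh and Ihh were not above background on any array, and Dhh was above it on hairpin 3 alone, with a signal of 20.6. In the tested 6 the median difference was -0.21 (-0.33 to -0.11 with a hairpin left out, hairpin 3 and hairpin 1 giving the ends), and none passed limma's test. On all 3 hairpins 0 genes were higher and 1 lower (16.7%), against 27.6% and 24.6% over all genes. The secreted ligand-release factor gene Scube2 was at -0.42 ± 0.48, the glypican genes Gpc5 at -0.27 ± 0.22 and Gpc4 at -0.24 ± 0.54, and Hhat, the enzyme that adds the palmitate of the ligand, at 0.05 ± 0.09. Only Gpc5 had its 3 hairpins on one side.

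Of the 33 tested regulators between Smo and the Gli proteins, 6 were higher (18.2%) and 10 lower (30.3%) on all 3 hairpins. Over all genes the shares were 27.6% and 24.6%. The median of 0.010 turned to -0.077, -0.0093 and -0.037 without hairpins 1, 2 and 3, and no regulator passed limma's test. Sufu, the main inhibitor that binds Gli proteins, was at 0.06 ± 0.26, with hairpin 2 at 0.36 and hairpins 1 and 3 at -0.08 and -0.10. The kinase gene Dyrk2 was the lowest, at -0.93 ± 0.75, from -0.20 on hairpin 2 to -1.69 on hairpin 3. The casein kinase gene Csnk1d was at -0.46 ± 0.19 and Gsk3b, a kinase that phosphorylates Gli proteins, at -0.37 ± 0.21. The kinase gene Dyrk1a (0.24 ± 0.15), the arrestin gene Arrb2 (0.23 ± 0.16) and the receptor kinase gene Grk2 (0.20 ± 0.14) had the largest increases in this list.

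Of the 49 tested genes for the primary cilium, 5 were higher and 23 lower on all 3 hairpins. That is 10.2% higher and 46.9% lower, against 27.6% and 24.6% over all genes. The median difference was -0.08, or -0.12 without hairpin 3, and none passed limma's test. Genes of the BBSome, a coat that carries membrane proteins in the cilium, stood at both ends: Bbs1 was at -0.92 ± 0.22 and Bbs9 at -0.55 ± 0.19, while Bbs5 was at 0.32 ± 0.17. Wdr35, of the retrograde transport complex, was at -0.55 ± 0.17. The centriole gene Cep164 was at 0.24 ± 0.08 and the transition zone gene Cc2d2a at 0.16 ± 0.28. Bbs1 had a signal of 150.3, 157 and 121 on hairpins 1, 2 and 3, against 277 on the control array, and was the 1 gene of the list at least 1.5-fold lower on all 3 hairpins.

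Of 31 tested genes described elsewhere as Hedgehog or Gli targets, 10 were higher and 10 lower on all 3 hairpins. Their median was 0.04 (0.081 without hairpin 1, and 0.10 with a filter on all 4 arrays), and none passed limma's test. The cyclin gene Ccne1, 1 of the 10 higher, is also in the cell cycle list, at 0.57 ± 0.34. The forkhead gene Foxf2, a target in gut and palate mesenchyme of mice, had a signal of 311, 106 and 574 on hairpins 1, 2 and 3, against 83.0 on the control array, a mean of 1.73 ± 1.25. The secreted Wnt modulator gene Sfrp2 was at 1.19 ± 0.93, highest on hairpin 3 (2.26), and the cartilage regulator gene Sox9 at 0.80 ± 0.66. On the other side, the zinc finger gene Osr2 was at -0.83 ± 0.29, the T-box gene Tbx3 at -0.63 ± 0.40 and the forkhead gene Foxd2 at -0.57 ± 0.21. That is 32.3% each way, near the 27.6% above and 24.6% below over all genes. Of the 3 members that are also targets, Hhip and Gli1 lay above it and Ptch1 lay on both sides.

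**Figure D4:**
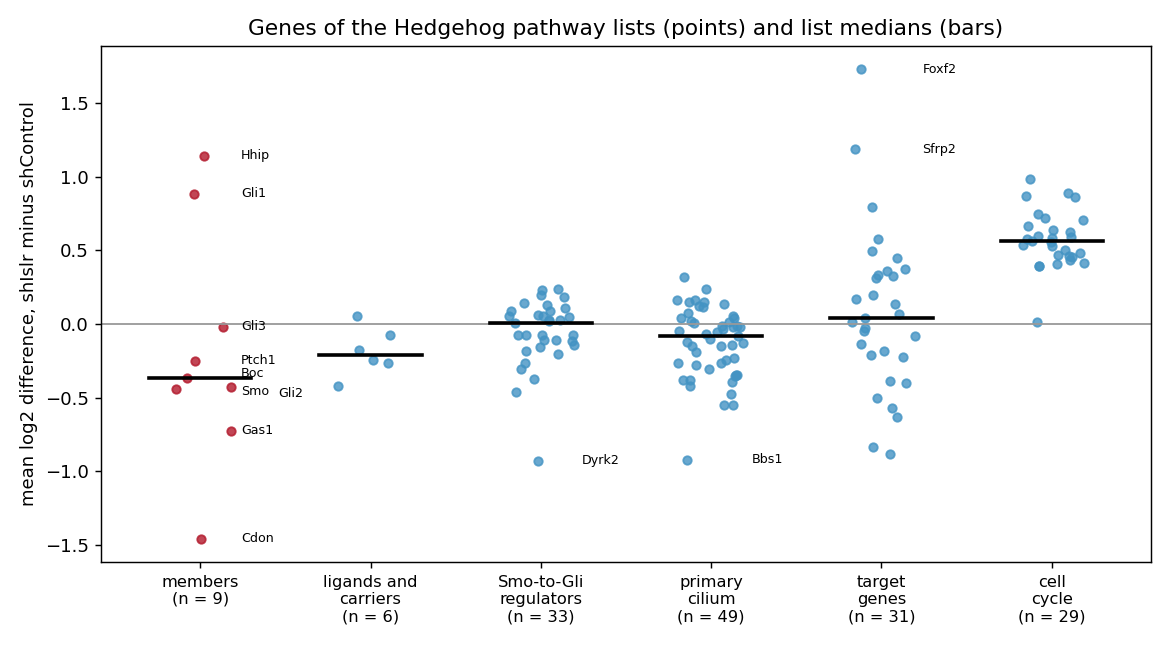
Mean log2 difference, hairpins minus control, of each tested gene in the member list, the 4 other pathway lists and the cell cycle list (points, with n genes per list) and the median of each list (bars). Among regulators Dyrk2 is lowest and among cilium genes Bbs1, the target list spreads from -0.88 to 1.73, and all 29 cell cycle genes have a mean above 0. Ccne1 is shown in both the target and the cell cycle list.

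The genes most like 3 members were found by the root mean square distance between their 3 differences and those of the member, over genes above background on all 4 arrays. Nearest to Gli1 were the zinc transporter gene Slc39a4 (0.05), the uridine phosphorylase gene Upp1 (0.05), the replication licensing inhibitor gene Gmnn (0.07) and the ubiquitin ligase gene Skp2 (0.10). Nearest to Hhip were Gm13889 (0.15), Trim47 (0.17), the neurotrophin receptor gene Ntrk3 (0.18) and the integrin gene Itgb7 (0.22). Nearest to Ptch1 were Zfp945 (0.06), Dact1 (0.07), the chromatin remodelling gene Smarcd1 (0.07) and Tanc1 (0.07). Likeness over 3 differences that share a control array describes these 4 arrays only.

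**Figure D5:**
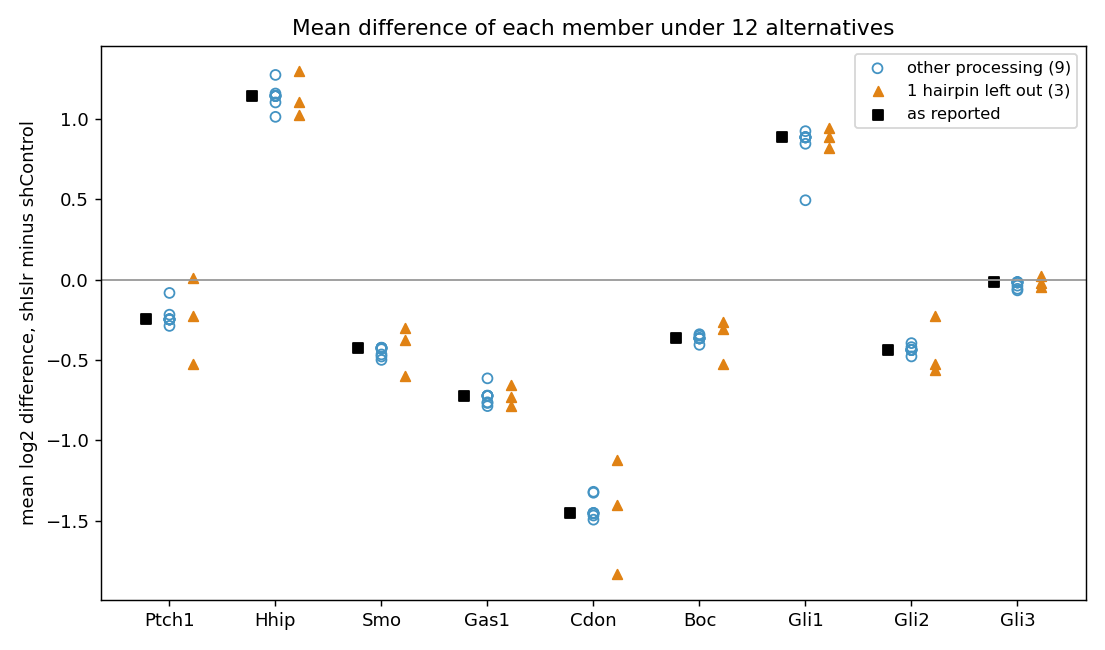
Mean log2 difference, hairpins minus control, of each member as reported (square), under 9 other ways of processing (circles) and with each of the 3 hairpins left out (triangles). Hhip and Gli1 stay above 0 and Cdon, Gas1, Smo, Boc and Gli2 below 0 throughout, while Ptch1 and Gli3 cross 0 once each with a hairpin left out.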

How the data were processed

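RNA of 4 cultures was hybridised to 1 array each. Per the file headers, the authors read the arrays with Feature Extraction 11.5.1.1 (design 028005, protocol GE1_1105_Oct12, build mm9). The signal intensity in the deposited files is linear and had been background subtracted within each array. The deposited series table holds the same intensity times 1 factor per array (2.02 to 2.25) of unstated origin.

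Here log2 intensity was set relative to the 75th percentile of its array, and features of a probe were averaged. RefSeq accessions (GRCm38.p6) named 28026 of 55681 probes. A probe was kept if well above background in the control or in every hairpin culture, and the brightest stood for its gene. The main test was limma 3.58.1 (R 4.3.3, lmFit, eBayes, two-sided, adjusted p under 0.05) of 3 hairpins against 1 control, which borrows its spread from the hairpins. The number of arrays limits the precision. Repeated spots were probes with at least 8 features.

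Members and lists were chosen with earlier results of these data known. Named genes were the members, Islr, Sufu and the ligands (1 further gene is not reported here), up to 3 genes per side of each pathway list above background on all 4 arrays, and the 4 nearest to each of Gli1, Hhip and Ptch1. Other names, such as marker genes, were added after their values were seen. Alternatives were other normalizations, background correction, filters, probe rule and variance model, outlier flags, a 2-fold rule and each hairpin left out.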

Additional observations from a re-analysis of the deposited data

How the results depend on the processing

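Of 108 values of the 9 members under 12 alternatives, 106 kept their sign and stayed above the adjusted p of 0.05 (smallest adjusted p = 0.396, by limma). Of the 108, 36 come from 4 alternatives that leave every member value as it was (no filter, the filter on all 4 arrays, the intensity trend and outlier flags), so their sign could not change. Members with all 3 hairpins on one side of the control could not change sign with 1 hairpin left out either. The mean over the probes of a gene left the 5 members with 1 probe as they were. The count of 106 is therefore largely fixed in advance. The 2 that reversed were Gli3, at 0.020 without hairpin 2, and Ptch1, at 0.0066 without hairpin 3. With each hairpin left out in turn, Gli3 lay between -0.049 and 0.020 and Ptch1 between -0.53 and 0.0066. Members at least 1.5-fold above the control were 1 in place of 2 with normexp background correction and quantile normalization, where Gli1 was at 0.49. Those below were 1 in place of 2 with the mean over the probes of a gene. With a 2-fold rule there were 0 above and 0 below by the brightest probe, though the dimmer probe of Hhip met it. Ptch1 was at -0.084 with normexp. The count of all genes called lower was 75 with quantile normalization in place of 47. It was 0 with normexp background correction and quantile normalization, with no filter, with a filter on all 4 arrays (which removes the 47 by construction) and with an intensity trend, and between 0 and 0 with a hairpin left out. Apart from the filter, the cause was not tested. With the series table values the list medians were -0.25 for ligands, -0.030 for regulators, -0.12 for the cilium and 0.0044 for targets; normexp gave -0.095 for ligands, and no filter -0.080. No paired analysis was possible because the control is 1 array with no replicate number. Spot error limits what the dim probes of Gli1, Ptch1 and the second Hhip probe can show.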
